A study of Homo sapiens with 20 samples.

Results

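Among the genes measured by SLAM-seq in MM1.S cells, 5 of 19593 were followed here because reads of their newly made RNA were absent or nearly absent under dCBP-30 at 2, 6 or 24 h. They are RNF183, GRHL3, RND3, FJX1 and DGAT2, and they were chosen on their counts of labelled reads under dCBP-30. Those counts and their comparison with DMSO are therefore given as a description, without a test. MM1.S is an established multiple myeloma cell line, and dCBP-30 is a degrader of both CBP and p300. Wild-type MM1.S cells received 10 nM dCBP-30 or its vehicle, DMSO. Treatment lasted 2, 6 or 24 h with 3 libraries each, and every time had its own DMSO libraries. The nucleoside 4-thiouridine (4sU) was given to the cells for the last hour before harvest. Another 2 libraries came from MM1.S cells without 4sU, with no treatment named. The study used 1 cell line, so nothing here speaks to other myeloma cells, and the labels do not say whether the 3 libraries of a group came from separate cultures. Every p-value below then measures the spread between these libraries, which may be technical.

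CBP and p300 are acetyltransferases that act as coactivators at enhancers and promoters. In SLAM-seq, 4sU built into RNA during labelling is alkylated and is then read as C where the gene has T. Reads that carry such a conversion are called T>C reads. They are taken to stem from RNA made while 4sU was present, though some also occur without 4sU. Reads that carry none stem from RNA made earlier, or from new RNA whose conversions were missed, and are called older reads here. When synthesis of an RNA stops, its T>C reads are the first to disappear, and its older reads follow at the pace of decay. A short-lived RNA is replaced quickly and therefore has a large share of T>C reads.

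The members have unrelated functions. RNF183 is a membrane-bound RING-type ubiquitin ligase. GRHL3 is a grainyhead transcription factor best known from the epidermis and other surface epithelia. RND3 is a GTP-binding protein that acts on the actin cytoskeleton and cell shape. FJX1 is the human counterpart of Drosophila four-jointed, a Golgi kinase of the Fat and Dachsous pathway. DGAT2 makes triglyceride from diacylglycerol in the last step of its synthesis.

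Reads were counted by the authors on 3′ UTRs of hg38. The RNF183 reads came from chr9:113297093-113297605 on the minus strand and the RND3 reads from chr2:150468195-150469986 on the minus strand. The GRHL3 reads came from chr1:24354489-24355318 on the plus strand. The FJX1 reads came from chr11:35619951-35620865 and the DGAT2 reads from chr11:75800509-75801535, both on the plus strand. An antisense long noncoding RNA, ENSG00000254814, overlaps the DGAT2 gene, and whether the counting used strand is not given in the sources used here, so a part of the DGAT2 reads could belong to it. All 5 members passed the filter on low counts for T>C, total and older reads.

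Promoter sequences are shown for the members that had one in the RefSeq table of GRCh38.p14, since RNF183, GRHL3 and RND3 shared one time course and FJX1 followed another. Each runs 5′ to 3′ from 250 bases before to 50 bases after 1 annotated start. The annotated genes of GRHL3 and RND3 reach further upstream, to chr1:24199558 and chr2:150539011. Which start these cells used was not tested. Capitals mark matches on either strand to the 7 short motifs searched. These were the TATA box TATAAA, the promoter element CCAAT, the SP1 site GGGCGG and the AP-1 site TGANTCA. The others were the E-box CAGGTG, the MYC E-box CACGTG and TGCTGA, which is a part of the MAF element. None of the 7 motifs contains another. DGAT2 is named only.
RNF183, chr9:113303327-113303626, minus strand: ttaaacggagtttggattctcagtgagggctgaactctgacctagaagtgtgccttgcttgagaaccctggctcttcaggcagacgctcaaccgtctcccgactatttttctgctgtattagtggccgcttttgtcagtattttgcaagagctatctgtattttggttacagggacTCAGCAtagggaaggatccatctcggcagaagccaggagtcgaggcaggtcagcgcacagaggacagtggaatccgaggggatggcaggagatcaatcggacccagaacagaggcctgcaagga
GRHL3, chr1:24319107-24319406, plus strand: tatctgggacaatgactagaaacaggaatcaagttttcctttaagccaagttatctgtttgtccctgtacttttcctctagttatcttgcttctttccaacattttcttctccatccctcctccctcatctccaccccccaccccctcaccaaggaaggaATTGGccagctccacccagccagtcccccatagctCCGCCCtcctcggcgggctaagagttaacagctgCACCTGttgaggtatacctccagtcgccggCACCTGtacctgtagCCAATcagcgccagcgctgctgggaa
RND3, chr2:150487646-150487945, minus strand: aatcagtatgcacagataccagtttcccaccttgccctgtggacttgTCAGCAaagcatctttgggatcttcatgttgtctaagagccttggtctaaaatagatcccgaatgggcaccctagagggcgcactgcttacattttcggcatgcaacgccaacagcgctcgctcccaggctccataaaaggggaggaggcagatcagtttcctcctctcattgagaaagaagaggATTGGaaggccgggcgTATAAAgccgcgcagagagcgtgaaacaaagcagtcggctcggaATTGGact
FJX1, chr11:35618210-35618509, plus strand: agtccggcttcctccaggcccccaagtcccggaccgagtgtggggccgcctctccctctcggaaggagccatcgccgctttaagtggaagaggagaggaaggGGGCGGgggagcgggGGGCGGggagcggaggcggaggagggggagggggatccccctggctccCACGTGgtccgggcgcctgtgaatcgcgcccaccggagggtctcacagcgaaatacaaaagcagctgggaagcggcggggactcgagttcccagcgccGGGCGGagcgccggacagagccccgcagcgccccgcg

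The 3 members that lost T>C reads by 2 h had promoters of ordinary base composition for this table, with a G and C content of 52.0% in RNF183, 53.0% in GRHL3 and 51.7% in RND3 against a median of 58.7% over 35116 promoters. The FJX1 promoter had 72.3%, higher than 84.9% of all promoters. No motif was present in all 4 sequences. RND3 held a TATAAA, found in 11.5% of all promoters of this length, and 2 CCAAT matches, found in 34.6%. GRHL3 held 2 CCAAT, 2 CAGGTG and 1 GGGCGG, and the last 2 were found in 20.6% and 45.0% of all promoters. FJX1 held 3 GGGCGG and 1 CACGTG, the latter found in 7.26%. RNF183 and RND3 each held 1 TGCTGA, found in 17.3%. TGANTCA, found in 7.71%, was in none of the 4. These matches describe the letters in each window and say nothing of which factors bind there.

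Between 12439672 and 18727376 reads per library fell on genes. Under DMSO at 2 h, 6.08% ± 0.078 (SD, n = 3) of them carried a conversion, while without 4sU 0.801% did. At 24 h the conversions per T>C read differed between the treatments over all genes, with 2.48 ± 0.025 (SD, n = 3) under DMSO and 1.47 ± 0.043 under dCBP-30. At 2 and 6 h the group means lay between 2.17 and 2.24. The part of this difference in the 24 h results was not tested, and the values for the members stand beside them. Conversions and T>C reads were counted apart, and their ratio was 0.924 without 4sU. It is therefore not an exact count within each read. Levels below are in RPM, that is reads per 1000000 reads, with library totals multiplied by TMM factors. The factor lay between 0.873 and 0.962 in all libraries but those of dCBP-30 at 6 and 24 h. There it was 1.11 to 1.14 and 1.29 to 1.32. Less RNA per cell and fewer cells of a kind cannot be told apart in such bulk libraries. Plasma cell and myeloma markers fitted the label, since 9 of 10, all but DERL3, had over 1 RPM under DMSO. Their summed level was 5830 to 7549 RPM under DMSO and 619 to 5172 RPM under dCBP-30. No B cell marker had over 1 RPM. The T and NK cell, myeloid and stromal lists each had 1 such gene, CD3E, CD68 and VIM. Under DMSO the stromal list summed to 578 to 958 RPM, with VIM as its highest gene. Of 10 epithelial markers only ESRP1 had over 1 RPM, EPCAM, OVOL1 and GRHL2 had no read in any labelled library, and the summed level was 0.804 to 4.68 RPM under DMSO and 1.72 to 11.5 RPM under dCBP-30.

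All 5 members had T>C reads in every DMSO library, above the background without 4sU. GRHL3 had the largest share, with 60.5% as the lowest, 74.5% as the median and 79.5% as the highest of 9 DMSO libraries, and 0 T>C reads among 226 without 4sU, which allows a share of up to 1.33%. FJX1 ranged from 31.0% to 66.9% with a median of 57.3%, and RND3 from 15.4% to 57.6% with a median of 49.3%. RNF183 ranged from 14.5% to 31.1% with a median of 23.2%, and DGAT2 from 1.49% to 8.01% with a median of 4.26%. The ranges of GRHL3 and FJX1, of FJX1 and RND3, of RND3 and RNF183, and narrowly of FJX1 and RNF183 overlapped, while every DGAT2 library lay below every library of the others. The share also depends on how many T positions a read covers. Over 10420 genes with at least 200 reads under DMSO the median pooled share was 10.3%, and GRHL3 (74.4%) lay above 99.7% of them, FJX1 (55.2%) above 98.6%, RND3 (45.5%) above 97.0%, RNF183 (23.5%) above 83.6% and DGAT2 (4.18%) above 16.1%.

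Against the 2 libraries without 4sU, the mean share was higher under DMSO for all 5 members. The difference was 73.5 percentage points for GRHL3, 43.3 for RND3, 41.3 for FJX1, 22.8 for RNF183 and 3.97 for DGAT2. A gene can be seen to lose T>C reads only if it has them under DMSO, so these differences are given without a test. FJX1 had the highest background, with 23 T>C reads of 144 and 10 of 82 in the 2 libraries without 4sU, at 1 conversion per T>C read. DGAT2 had 9 T>C reads of 1266 in one of these libraries and 0 of 1006 in the other.

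**Figure D1:**
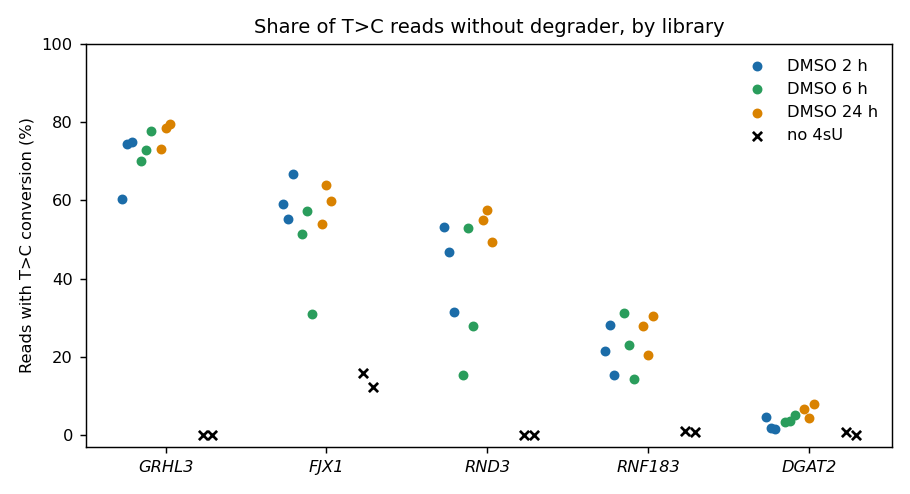
Share of reads with a T>C conversion (%, vertical axis) for each member in the 9 DMSO libraries, coloured by time, and in the 2 libraries without 4sU (crosses). Each point is 1 library. GRHL3 lies between 60.5% and 79.5% and DGAT2 between 1.49% and 8.01%, and FJX1 has the highest background, 33 T>C reads of 226 over both libraries without 4sU.

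RNF183, GRHL3 and RND3 had lost their T>C reads at 2 h. RNF183 had 0 T>C reads in each of the 3 dCBP-30 libraries at 2 h and 71, 97 and 48 in the DMSO libraries, at least 75.8-fold lower against a floor of 3 reads over the group. At 6 h its dCBP-30 libraries had 0, 0 and 7 T>C reads against 76, 88 and 46 under DMSO, 35.0-fold lower (95% counting interval 16.7 to 88.0). The 7 reads came from 1 library, for which 7 conversions were counted. At 24 h they had 50, 34 and 32 against 106, 88 and 98, 3.02-fold lower (2.42 to 3.77). The 24 h value depended on the scaling, with a log2 change of -1.60 in the fit with TMM factors, -1.08 without them and -0.95 with scaling by T>C reads, which is under 2-fold. The treatments did not overlap at any of the 3 times, and part of the signal was back at 24 h. Intervals and floors cover counting error only.

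GRHL3 under dCBP-30 had 0, 0 and 2 T>C reads at 2 h, none at 6 h, and 28, 15 and 37 at 24 h. Its DMSO libraries had 52, 117 and 111 at 2 h. The later DMSO libraries had 61, 51 and 101 at 6 h and 101, 178 and 62 at 24 h. GRHL3 was 147-fold lower at 2 h (40.4 to 1223), at least 82.7-fold lower at 6 h and 5.11-fold lower at 24 h (3.99 to 6.60). The return at 24 h was seen in all 3 libraries, and none of them reached the lowest DMSO library.

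RND3 had no T>C read under dCBP-30 at 2 or 6 h and 4, 0 and 5 at 24 h. Under DMSO it had 49, 53 and 24 at 2 h, only 4, 37 and 14 at 6 h, and 22, 34 and 33 at 24 h. It was at least 44.2-fold lower at 2 h, at least 21.4-fold lower at 6 h and 11.8-fold lower at 24 h (5.97 to 26.8). The low DMSO count of 4 at 6 h makes the 6 h bound for RND3 the weakest of those given here.

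FJX1 still had T>C reads at 2 h, with a lower mean than under DMSO but no call. It had 45, 53 and 50 under dCBP-30 and 52, 64 and 103 under DMSO at 2 h, or 3.50 RPM ± 0.38 against 5.40 ± 2.00 (SD, n = 3). In RPM the highest dCBP-30 library, 3.88, lay just below the lowest DMSO library, 4.00. The log2 change was -0.63 ± 0.42 (SE), and -0.52 ± 0.44 without TMM factors. It became -1.14 after subtraction of the background without 4sU, which was 14.6% of FJX1 reads. At 6 h FJX1 had no T>C read under dCBP-30 and 39, 75 and 48 under DMSO, at least 62.9-fold lower. At 24 h it had 0, 0 and 1 against 83, 94 and 67, 292-fold lower (52.0 to 11595).

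DGAT2 had T>C reads at 2 h and few from 6 h on. At 2 h it had 31, 34 and 87 T>C reads under dCBP-30 and 47, 20 and 18 under DMSO, and the groups overlapped. At 6 h it had 4, 9 and 6 against 43, 34 and 54, 8.04-fold lower (4.95 to 13.8). These 19 T>C reads of 3180 (0.597%, 95% exact interval 0.360 to 0.931) were near the 9 of 2272 without 4sU (0.396%, 0.181 to 0.751), and subtraction of that background moved the log2 change from -2.99 to -4.23. Whether any DGAT2 RNA was still made at 6 h therefore cannot be told from these counts. At 24 h it had none in any dCBP-30 library and 70, 49 and 69 under DMSO, at least 75.1-fold lower.

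**Figure D2:**
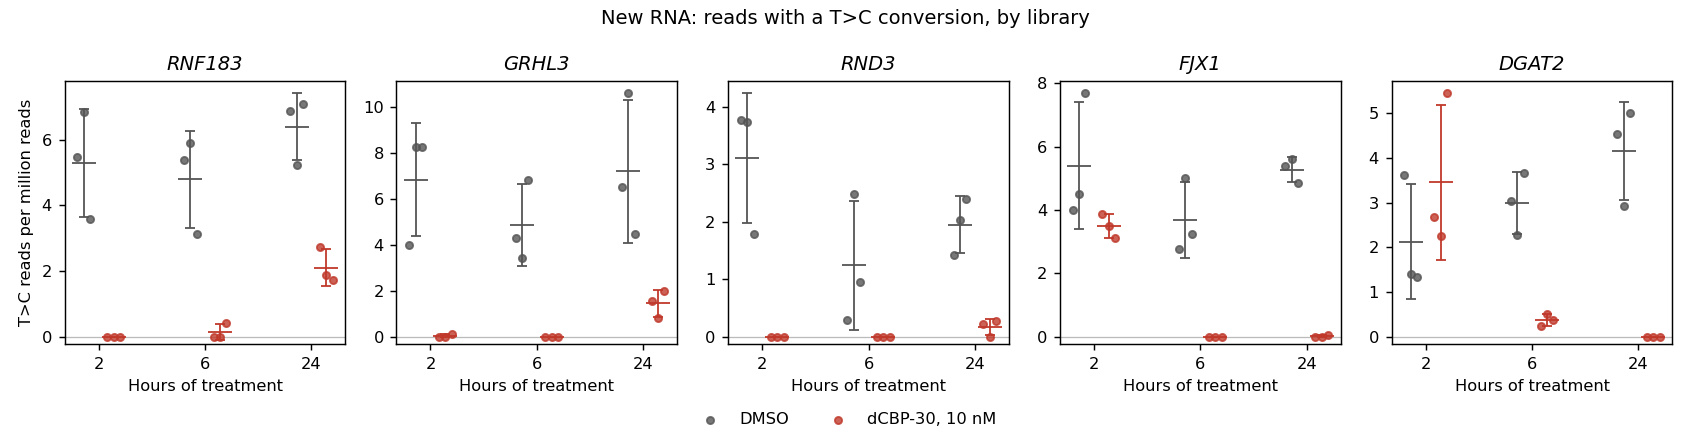
T>C reads in RPM (vertical axis, own linear scale in each panel) against hours of treatment for the 5 members. Points are libraries, lines are means and bars are SD (n = 3). RNF183, GRHL3 and RND3 lie at or near 0 at 2 and 6 h under dCBP-30, FJX1 at 6 and 24 h, and DGAT2 at 24 h.

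A group counted as holding nearly no T>C reads when its 3 libraries summed to 3 or fewer. The values nearest this limit were 2 for GRHL3 at 2 h and 1 for FJX1 at 24 h on the inside, and 7 for RNF183 at 6 h, 9 for RND3 at 24 h and 19 for DGAT2 at 6 h on the outside. Among genes with at least 60 T>C reads over the 3 DMSO libraries of a time, 15 of 6874 (0.218%) were at or under this limit at 2 h. The same was true for 18 of 7155 (0.252%) at 6 h and for 47 of 8025 (0.586%) at 24 h. These were 72 genes in all, 67 of them not members. At 2 h the 12 others were HES1, CELSR1, SYCP3, PCED1B and CLEC7A, each with 0 T>C reads under dCBP-30, and RGS1, P2RX1, BEST3, FGF2, RGS3, RESF1 and DMRTA1, each with 3. HES1, a transcription factor of the Notch pathway, had the most under DMSO, 462. GRHL3 at 2 and 6 h and FJX1 at 6 and 24 h were among the 7 genes at or under the limit at more than 1 time, and RGS1, a regulator of G protein signalling, was so at all 3. RND3 at 6 h was not counted because its DMSO libraries summed to 55.

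How much of the whole RNA was left differed widely among these genes. At 2 h total reads under dCBP-30 stood at 1.69% of DMSO for HES1 and at 94.7% for P2RX1, an ATP-gated ion channel, with a median of 36.5% over the 15 genes. GRHL3 had 3.14% left, RND3 4.91% and RNF183 35.4%. At 6 h the median was 16.2% and at 24 h 10.6%, and FJX1 stood at 3.44% and 5.69% and DGAT2 at 2.89% at 24 h.

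**Figure D3:**
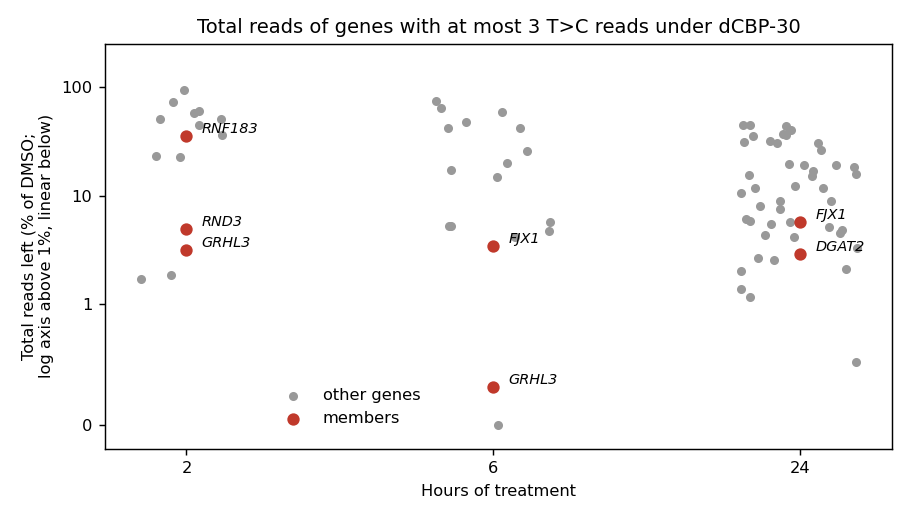
Total reads left under dCBP-30 (% of DMSO, log axis above 1% and linear below) for genes with at least 60 T>C reads over the DMSO libraries and at most 3 over the dCBP-30 libraries of a time (hours, horizontal axis). Each point is 1 gene and the members are in red. At 2 h the genes spread from 1.69% to 94.7%, with RNF183 at 35.4% and GRHL3 at 3.14%.

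The total reads followed the T>C reads at once in GRHL3 and RND3. GRHL3 had 3, 5 and 5 reads under dCBP-30 at 2 h against 86, 157 and 148 under DMSO, and 0, 0 and 1 at 6 h against 87, 70 and 130. RND3 had 6, 0 and 8 reads at 2 h against 92, 113 and 76, and no read at all in the 3 dCBP-30 libraries at 6 h against 26, 70 and 50. With so few reads, the share of T>C reads at 6 h could not be measured in either gene. These are the times that chose the genes and are given as a description.

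At 24 h, a time that did not choose them, the total reads of RNF183, GRHL3 and RND3 were lower under dCBP-30. RNF183 had 172, 89 and 113 reads against 381, 427 and 321, a log2 fold change of -1.85 ± 0.24 (SE, adjusted p = 3.9e-07, edgeR's quasi-likelihood test, Benjamini-Hochberg adjusted over all genes). GRHL3 had 42, 22 and 58 against 138, 227 and 78, a change of -2.09 ± 0.39 (adjusted p = 6.93e-05). RND3 had 15, 10 and 6 against 40, 59 and 67, a change of -2.68 ± 0.61. This is given without a test, because RND3 passed the filter on low counts through its DMSO libraries. The groups did not overlap in any of the 3 genes. Over all genes 16.1% were called lower in total reads at 24 h. The earlier times had 8.67% (6 h) and 1.25% (2 h). RNF183 and GRHL3 were called lower, and all 3 genes had been chosen for values at earlier times of the same treatment.

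At 24 h a large share of the remaining reads were again T>C reads. GRHL3 had 66.2% ± 2.2 under dCBP-30 and 77.0% ± 3.4 under DMSO (SD, n = 3), without overlap, and RNF183 had 31.9% ± 5.5 and 26.3% ± 5.1, with overlap. The conversions per T>C read were lower, at 1.80 against 3.27 in GRHL3, 1.25 against 2.59 in RNF183 and 1.00 against 2.01 in RND3, as they were over all genes. In RND3, 9 of 31 reads at 24 h were T>C reads (95% exact interval of the share 14.2% to 48.0%), against 53.6% under DMSO.

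RNF183 kept unlabelled RNA longer than GRHL3 and RND3. At 2 h it had 99, 160 and 109 reads under dCBP-30, all of them older reads, and 331, 345 and 313 under DMSO. No T>C read among these 368 allows a share of up to 0.815%, against 21.8% under DMSO. Relative to DMSO, its older reads stood at 45.2%, 4.34% and 25.9% after 2, 6 and 24 h. Within dCBP-30, older RNF183 reads fell from 8.64 RPM ± 1.87 at 2 h to 0.721 ± 0.215 at 6 h (SD, n = 3). The log2 fold change was -3.56 ± 0.33 (SE). If this fall was exponential and no RNF183 RNA was made, the older reads halved every 1.12 h ± 0.17 (SD). At 24 h they were 4.68 RPM ± 1.85, a log2 change from 2 h of -0.88 ± 0.27 (SE), which is under the 2-fold required for a call. Without dCBP-30 replicate 3 at 2 h or replicate 1 at 24 h it passed that limit, at -1.05 and -1.23. RNF183 was chosen by its T>C reads at 2 h, the start of both intervals, so both changes are given without a test.

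The older reads of GRHL3 and RND3 were few at both early times and are given as counts, without a test. Under dCBP-30 GRHL3 had 3, 5 and 3 older reads at 2 h, then 0, 0 and 1 at 6 h, and 14, 7 and 21 at 24 h. RND3 had 6, 0 and 8 older reads at 2 h, none at 6 h, and 11, 10 and 1 at 24 h. Both genes passed the filter on low counts through their DMSO libraries, and 2 and 6 h are the times that chose them.

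FJX1 stood apart at 2 h. It had 148, 174 and 154 reads under dCBP-30 and 88, 116 and 154 under DMSO, a log2 change in total reads of 0.36 ± 0.38 (SE, adjusted p = 0.712). The older reads alone were higher in every dCBP-30 library (103, 121 and 104 against 36, 52 and 51), at 7.79 RPM ± 1.2 against 3.42 ± 0.56 (SD, n = 3). The share of T>C reads was 31.1% ± 1.2 under dCBP-30 and 60.4% ± 6.0 under DMSO, with no overlap. The conversions per T>C read were 1.80 and 2.06. By 6 h only 1, 12 and 2 reads were left, against 76, 131 and 155, and at 24 h 19, 5 and 4 against 154, 147 and 112. FJX1 was chosen by its T>C reads at 6 and 24 h, so the fall of its older reads is given without a test. Within dCBP-30 the older FJX1 reads fell by a log2 change of -4.71 ± 0.64 (SE) from 2 to 6 h and of -3.97 ± 0.60 from 2 to 24 h. They halved every 0.836 h ± 0.300 (SD) between 2 and 6 h on average if the fall was exponential, and RNA made after 2 h would make the true value shorter.

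DGAT2 had a large store of older RNA, which was still present at 6 h when its T>C reads were near background. Its total reads at 2 h were 811, 1317 and 1114 under dCBP-30 and 1028, 1083 and 1209 under DMSO, a log2 change of -0.12 ± 0.14 (SE, adjusted p = 0.747). At 6 h they were 975, 1081 and 1124 against 1300, 948 and 1052, a change of -0.28 ± 0.14 (adjusted p = 0.119). The groups overlapped at both times. At 24 h only 43, 28 and 34 reads were left against 1036, 1149 and 861. No T>C read among these 105 allows a share of up to 2.86%, and the share under DMSO at 24 h was 6.17% (95% exact interval 5.34 to 7.09).

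Within dCBP-30 the older DGAT2 reads at 6 h were at 86.1% of their 2 h level (log2 change -0.22 ± 0.15 SE, adjusted p = 0.274). At 24 h, the time that chose DGAT2, its older reads were at 2.64% of that level (-5.24 ± 0.19), given without a test. From 6 to 24 h they halved every 3.58 h ± 0.24 (SD) if the fall was exponential. Among the members DGAT2 had the smallest T>C share under DMSO, and its older reads at 6 h were the highest of the 5 relative to DMSO, at 85.4%. With 5 genes no relation between these values was tested.

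**Figure D4:**
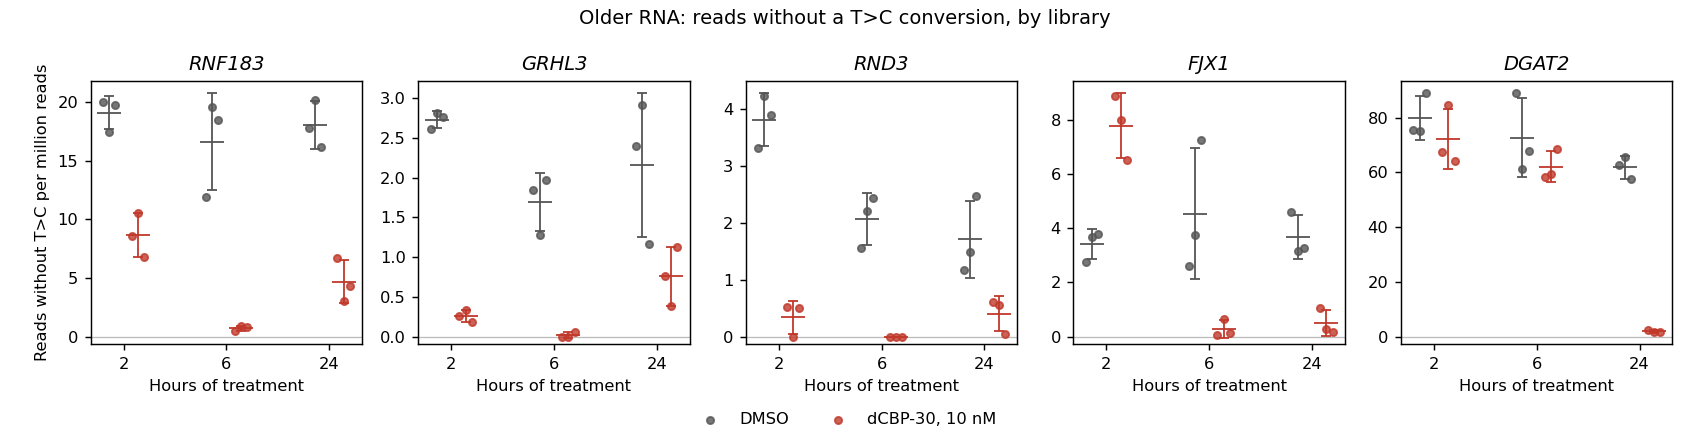
Reads without a T>C conversion in RPM (vertical axis, own linear scale in each panel) against hours of treatment for the 5 members. Points are libraries, lines are means and bars are SD (n = 3). DGAT2 under dCBP-30 is at 62.1 RPM at 6 h and 1.91 at 24 h, while FJX1 is above DMSO at 2 h and below it later.

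Of the 3 members with older reads enough to follow under dCBP-30, RNF183 and FJX1 were past the threshold of a call from 2 to 6 h, and FJX1 and DGAT2 from 2 to 24 h. For all 3 this is a description. Over all 12108 genes tested, 6.99% and 15.2% were called, and nothing is read from the comparison because the genes were chosen for RNA lost at these times. Under DMSO none of the members was called at either interval, and 0% and 0.264% of all genes were, the first being 0 genes in edgeR, 914 at an unadjusted p under 0.05, and 3 in DESeq2. The largest estimate for a member under DMSO was for RND3 from 2 to 24 h, at -1.16 ± 0.75 (SE, adjusted p = 0.531).

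The 3′ UTRs of the members were scanned for the AU-rich pentamer ATTTA, a motif known from short-lived mRNAs, after their values had been seen. RND3 held 5 in 1792 bases, or 2.79 per kb, GRHL3 and FJX1 held 2 each (2.41 and 2.19 per kb), DGAT2 held 1 (0.974 per kb) and RNF183 none. The median over 10083 tested genes was 1.61 per kb with an upper quartile of 2.95, so all 5 lay below the upper quartile. None held the longer TTATTTATT, which 9.56% of all tested genes did. The Pumilio motif TGTANATA, which 31.2% of all tested genes held, occurred 2 times each in GRHL3 and FJX1 and not in the other members.

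Over the 18 labelled libraries, the T>C levels of RNF183 and GRHL3 followed each other with a Pearson r of 0.93, and each followed RND3 with 0.84 and 0.85. FJX1 and DGAT2 correlated at 0.87, and RNF183 and DGAT2 at 0.28. These values describe log2(T>C RPM + 0.5) over libraries that share their treatment and depth. They include the dCBP-30 libraries whose T>C reads chose the members. Likeness among members chosen at the same time therefore follows in part from the choice, and nothing is read from it. Of 10082 other genes, the closest to RNF183 were RASSF5 (r = 0.97) and ZFP36L1 (0.97), and to GRHL3 VIM (0.98) and LPIN1 (0.97). BHLHA15, a transcription factor of secretory cells (0.98), and GPATCH4 (0.98) were closest to FJX1, CALM2 (0.93) and SELENOT (0.92) to RND3, and IPO7 (0.98) and RPL13 (0.97) to DGAT2. BHLHA15 had 703 T>C reads with dCBP-30 for 2 h against 749 with DMSO, then 38 against 733 (6 h) and 16 against 1431 (24 h). RASSF5 had 609 against 3539 at 2 h, 848 against 4543 at 6 h and 3124 against 5484 at 24 h. The pattern in time was alike in each pair, while neither of these genes reached the near-absence of the member.

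Genes next to the members were lower in T>C reads in some cases. The nearest tested protein-coding gene on each side of a member gave 10 neighbours, of which 2, 3 and 3 had lower T>C reads after 2, 6 and 24 h, and none was called higher. Over all genes 7.14%, 17.1% and 31.2% were called lower at these times, and counts of 2 or 3 in 10 are too small to be set apart from these shares. IFNLR1, an interferon lambda receptor subunit 11.6 kb from GRHL3, fell by 2.93 ± 0.32 (log2 scale) at 2 h (adjusted p = 8.56e-11) and by 2.00 ± 0.30 at 6 h (1.37e-07), and its 24 h estimate was -0.82 ± 0.28. The cell surface receptor CD44, 386 kb from FJX1, fell at all 3 times, with log2 changes of -1.92 ± 0.27, -3.75 ± 0.31 and -3.95 ± 0.30. PRPF4, a splicing factor 3.08 kb from RNF183, was called lower at 6 h (-1.37 ± 0.37) and 24 h (-2.13 ± 0.38) but had an estimate of -0.017 ± 0.36 at 2 h, when RNF183 had no T>C reads. RPS3, before DGAT2, was called lower at 24 h (-1.39 ± 0.19). WDR31, NIPAL3, TRIM44, MMADHC, RBM43 and UVRAG were called at no time, and WDR31 and RBM43 had 43 or fewer T>C reads in every DMSO group.

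To place RNF183, GRHL3, FJX1 and DGAT2 in their pathways, 4 lists with 111 other genes were compared in T>C reads with dCBP-30 against DMSO. At 2 h 7.14% of all genes were called lower and 1.66% higher, at 6 h 17.1% and 2.36%, and at 24 h 31.2% and 2.18%. The counts of called genes in the lists were not tested against these shares. The median log2 change over all genes was 0.047, -0.27 and -0.69 at 2, 6 and 24 h, without TMM factors 0.15, 0.045 and -0.16, and with scaling by T>C reads 0.050, 0.040 and -0.038. Directions at 24 h are therefore relative to the scaling.

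Of the membrane-bound ubiquitin ligases, related to RNF183, 22 of 37 were tested and 4 were called lower at 2 h, 7 at 6 h and 6 at 24 h, with 1 higher at 6 h. Their median log2 change was -0.22, -0.37 and -0.80. RNF122 fell by 4.33 ± 0.85 at 2 h, by 2.74 ± 0.70 at 6 h and by 2.88 ± 0.68 at 24 h. Its T>C level under dCBP-30 was 0.128, 0.448 and 0.560 RPM at these times, against 2.57, 3.04 and 4.18 RPM under DMSO. RNF122 passed the filter on low counts through its DMSO libraries, so these changes are given without a test. It remains among the genes counted as called. RNF19A fell by 2.75 ± 0.52, 2.80 ± 0.53 and 1.49 ± 0.47, the last not called without TMM factors or with scaling by T>C reads. MARCHF6, a ligase of endoplasmic reticulum protein degradation, fell by 1.19 ± 0.24 at 2 h. RNF149 fell by 2.36 ± 0.44 at 6 h and ZNRF3, which clears Wnt receptors, by 1.75 ± 0.31 at 24 h. At 24 h 6 were lower and none higher, but 2 lower and 2 higher with scaling by T>C reads. RNF103, lower at 2 h, and RNF185, higher at 6 h, were also called and are named after their values were seen.

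The grainyhead and CP2 family of GRHL3 showed no call. Of its 5 other genes 3 were tested, with a median log2 change of 0.66, 0.39 and 0.53 at 2, 6 and 24 h, and 1 was called higher at 24 h without TMM factors or with scaling by T>C reads.

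Of the Fat, Dachsous and Hippo genes of the FJX1 list, 20 of 33 were tested and 2 were lower at 2 h. The later times each had 6 lower and 2 higher, with medians over the 3 times of 0.0045, -0.051 and -0.035. The last 2 medians turned positive without TMM factors (0.26 and 0.49) and with scaling by T>C reads (0.27 and 0.59). At 24 h the split was 4 lower and 5 higher with scaling by T>C reads. STK4, a Hippo kinase, fell by 1.53 ± 0.20 at 2 h (adjusted p = 7.97e-09). LIMD1, which binds LATS kinases, fell by 1.15 ± 0.30, 2.01 ± 0.31 and 2.37 ± 0.30 at 2, 6 and 24 h. FAT1, a giant cadherin, fell by 3.12 ± 0.81 at 6 h and by 3.97 ± 0.83 at 24 h, and WWC1 fell by 2.25 ± 0.44 at 6 h. LATS2, a kinase that restrains YAP, rose by 2.71 ± 0.65 at 24 h (adjusted p = 0.000484).

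Of the genes of triglyceride synthesis and storage around DGAT2, 20 of 36 were tested. At 2 h 1 was lower and 1 higher, at 6 h 4 were lower, and at 24 h 9 were lower and 1 higher, with medians of 0.28, -0.38 and -0.88. LPIN1, which makes diacylglycerol from phosphatidic acid, fell by 2.50 ± 0.23 at 2 h (adjusted p = 9.73e-14) and by 2.27 ± 0.22 at 6 h. MGLL, which breaks down monoacylglycerol, fell by 4.80 ± 0.76 at 6 h and by 4.75 ± 0.68 at 24 h. AGPAT5, an acyltransferase of the same pathway, fell by 2.44 ± 0.37 at 6 h and fell by 2.72 ± 0.37 at 24 h, and GPAT2 by 3.70 ± 0.74 at 24 h. PNPLA2, the triglyceride lipase, was the gene called higher at 2 h and PLIN2, a lipid droplet coat protein, the fourth called at 6 h, both named after their values were seen. With scaling by T>C reads 6 were lower and 2 higher at 24 h.

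The total reads of these lists did not follow the T>C reads throughout. Over all genes 0.457%, 7.47% and 15% were called higher in total reads after 2, 6 and 24 h, beside the shares called lower given above. Of 24 tested Fat, Dachsous and Hippo genes none was called after 2 h, 5 were lower and 4 higher after 6 h, and 3 were lower and 9 higher after 24 h. Their median log2 change in total reads was -0.11, 0.44 and 0.85, and YAP1, the coactivator that the Hippo kinases restrain, was called higher after 6 h (2.19 ± 0.44 SE) and 24 h (3.62 ± 0.47) and is named after its values were seen. Of 28 ubiquitin ligases 2 were lower after 2 h, 4 lower and 3 higher after 6 h, and 2 lower and 5 higher after 24 h. Of 24 triglyceride genes none was called after 2 h, with 4 lower and 3 higher after 6 h, and 4 lower and 4 higher after 24 h. No grainyhead or CP2 gene was called. Without TMM factors the median of all genes moved from 0.052 to 0.58 at 24 h, and the 24 h splits became 3 lower and 13 higher, 1 lower and 12 higher, and 3 lower and 5 higher, with 2 grainyhead and CP2 genes higher.

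**Figure D5:**
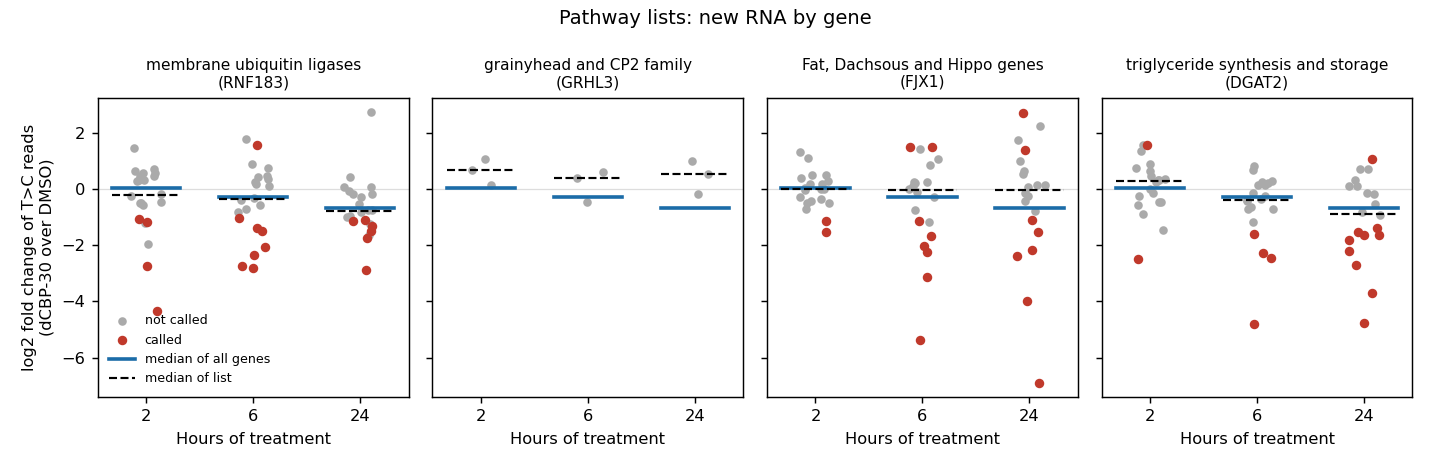
log2 fold change of T>C reads, dCBP-30 over DMSO (vertical axis), for the tested genes of the 4 lists at 2, 6 and 24 h. Each point is 1 gene, red if called, and lines give the median of the list (dashed) and of all genes (blue). The grainyhead and CP2 list has no called gene, and the median of all genes moves from 0.047 at 2 h to -0.69 at 24 h.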

How the data were processed

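The authors trimmed 3′-end reads (Lexogen QuantSeq) with TrimGalore, ran Slamdunk at its defaults against hg38 3′ UTRs and collapsed the output per transcript. For each of 20 libraries the authors deposited raw counts, neither normalized nor pooled, of all reads, of reads with a T>C conversion, of the conversions themselves and of T positions covered. Here 89088 of 97466 transcripts were matched to GENCODE release 44, and each gene took the transcript with the most reads. The transcripts that were not matched held 0.0789% to 0.199% of reads. Libraries of a group were not copies (chi-square per degree of freedom 8.54 to 50.1). R 4.3.3, edgeR 4.0.16 and DESeq2 1.42.0 were used. The edgeR quasi-likelihood test (robust) was fitted to T>C, total or older reads in 18 labelled libraries, with the 6 groups as terms, library size from total reads with TMM factors, filterByExpr with a minimum count of 10, and Benjamini-Hochberg adjustment. A call needed adjusted p under 0.05 and over 2-fold. The fits were tested on simulated data.

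The members, lists and rules were chosen with earlier results of these data known. Named genes are the members, their nearest tested neighbours, the 2 genes most correlated with each member, genes at or under the limit of 3 T>C reads where a time had 15 or fewer, and in each list and time up to 3 called genes with the largest change, no overlap between groups and, in whichever group was higher, 20 or more T>C reads on average. A gene list drawn up around RND3 is not reported here. The Drosophila spike-in was not used here. Alternatives were other scalings, DESeq2, other filters, background subtraction, reads summed over transcripts, a block for replicate number and omission of each library.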

Additional observations from a re-analysis of the deposited data

Results flagged for a closer look

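In FJX1, every dCBP-30 library had more older reads than every DMSO library at 2 h (228% of DMSO) and fewer at 6 h (6.22%) and 24 h (13.4%). The difference between the times was not tested. The share of T>C reads over the 9 DMSO libraries had 1 library apart from the others in GRHL3, replicate 1 at 2 h with 60.5%, where the gap was 0.507 of the range, and in FJX1, replicate 3 at 6 h with 31.0%, where the gap was 0.567 of the range. Chance sets about 1 in 20 such groups apart.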

How the results depend on the processing

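GRHL3 and RND3 had at most 8 reads in any dCBP-30 library at 2 and 6 h, so their shares and decay could not be followed there. A filter that required 20 reads on average left RND3 out of the T>C fit and GRHL3 and RND3 out of the fit to older reads. Without TMM factors 525 genes were called higher in T>C reads at 6 h (238 with TMM factors), while at 24 h the calls were 1763 lower (3147) and 602 higher (220), and 1061 were lower in total reads at 24 h (1972) and 1079 in older reads from 2 to 24 h under dCBP-30 (1845). With scaling by T>C reads 517 genes were called higher at 6 h, and the 24 h calls were 1515 lower and 759 higher, so that lower genes made up 66.6% of the calls in place of 93.5%. DESeq2 called 253 higher in T>C reads at 2 h (167 in edgeR), and background subtraction 127 higher at 24 h. For older reads under DMSO, DESeq2 called 3 lower from 2 to 6 h and 49 from 2 to 24 h, and no filter gave 6 and 50, against 0 and 32. Leaving out 1 library moved these between 0 and 2 and between 13 and 36, with 2 called without DMSO replicate 2 at 6 h. For the second count, 15 were called without DMSO replicate 2 at 2 h, and 17 and 13 without DMSO replicate 1 and 2 at 24 h.

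The older GRHL3 reads, given in the report as counts only, had a fitted change of -3.26 from 2 to 6 h under dCBP-30 that was past the threshold but not with no filter (-3.26), and that ranged from -5.04 to -2.79 with 1 library left out. It was not past the threshold without dCBP-30 replicate 2 at 2 h or replicate 1 or 2 at 6 h. From 2 to 24 h the older GRHL3 reads (1.53) became a call without TMM factors (1.98), in DESeq2 (1.57) and with reads summed over transcripts (1.41), and ranged from 1.13 to 1.84 with 1 library left out. The RNF183 change from 2 to 24 h ranged from -1.23 to -0.65. The T>C change of RNF183 at 24 h, -1.60, was -1.08 without TMM factors and -0.95 with scaling by T>C reads. Background subtraction moved the T>C change of FJX1 at 2 h from -0.63 to -1.14 and that of DGAT2 at 6 h from -2.99 to -4.23. The cause was not tested. Same-numbered libraries did not deviate together (correlations from -0.33 to 0.11 over 9 pairs), so the numbers do not pair them. With the replicate block the older GRHL3 reads changed by -3.27 from 2 to 6 h, and no call on a member was lost or gained. No tested or described member value past 2-fold reversed its sign under any alternative.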
